A study of Homo sapiens with 6 samples.

Results

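The genes examined here encode the serine/arginine-rich (SR) splicing factors SRSF1, SRSF2, SRSF3, SRSF4, SRSF5, SRSF6, SRSF7, SRSF9, SRSF10 and SRSF11. They are 10 of the 19974 protein-coding genes of the RefSeq table (GRCh38.p14) on chromosomes 1 to 22 and X, and all 10 matched by symbol. Members were taken by name, with earlier results of these data known. SRSF8 and SRSF12 share the name but are not among the members, and they had no peak in any list. A peak was assigned to a gene when it lay in the gene's span or within 5 kb of either end. Of the peaks in 4 deposited lists, 40 lay in these windows.

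The lists come from ChIPmentation, a form of chromatin immunoprecipitation in which a transposase adds the sequencing adapters, in IMR90 cells, an established line of human embryonic lung fibroblasts. SON, a scaffold protein of nuclear speckles, was mapped in untreated cells, after 3 days and after 6 days of ICM, a treatment whose name the labels do not expand. HMGB2, a chromatin protein that bends DNA, was mapped in untreated cells. Cells for SON were fixed with formaldehyde, and cells for HMGB2 with EGS, a longer protein crosslinker, and formaldehyde, so target and fixation cannot be told apart. All values come from this single line. Each group has 1 list, so no difference between groups was tested, and whether the 2 replicates inside each SON list are separate cultures is not stated. The input library and the sample labelled DSG, both for HMGB2, were not analysed here.

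SR proteins carry an RNA recognition motif and a tail rich in alternating serine and arginine. They bind exonic enhancers in pre-mRNA, help the spliceosome choose splice sites, and are stored in nuclear speckles, which they leave when kinases phosphorylate their tails. Their own genes are known for conserved exons whose inclusion brings an early stop codon, so that SR proteins limit their own mRNA. The series concerns nuclear speckles and the splicing program of senescent cells. A SON peak at an SR gene is a place where the antibody enriched the gene's DNA, and it does not measure the gene's RNA.

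SON peaks lay at nearly all of these genes in untreated cells and at 3 days, and at fewer at 6 days. In untreated cells 9 of the 10 genes had a SON peak, where 57.1% of all protein-coding genes had one. At 3 days all 10 genes had one, against 41.0% of protein-coding genes. At 6 days 6 had one, against 21.5%. HMGB2 peaks lay at 7, against 23.3%. Each of these 7 also had an untreated SON peak, as did 4324 of the 4650 protein-coding genes with an HMGB2 peak. That overlap is near the background. Over all protein-coding genes, 21.6% had both peaks. SRSF1, SRSF2, SRSF4, SRSF5, SRSF7 and SRSF10 had a peak in all 3 SON lists, 6 genes where the background was 20.3%. SRSF2, SRSF5, SRSF7 and SRSF10 had one in all 4 lists, against 10.6%. Of these peaks, 2 did not lie at the start of the member. The HMGB2 peak of SRSF10 was 20.6 kb from it, near the start of PNRC2, and the 6-day SON peak of SRSF4 lay past the transcript end. SRSF3, SRSF9 and SRSF11 had SON peaks in untreated cells and at 3 days and none at 6 days, a pattern held by 19.8% of protein-coding genes. SRSF6 was the member with a SON peak at 3 days and none in untreated cells, a pattern of 0.916% of protein-coding genes. Of the 11401 protein-coding genes with an untreated SON peak, 70.2% had one at 3 days and 37.2% at 6 days, where 9 and 6 of the 9 such members did.

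The background changed little when genes shorter or longer than the members were left out. The range that remains is wide, with 11308 of the 19974 genes, so short and long genes were not compared. The members span 3297 bp (SRSF2) to 47357 bp (SRSF11), and among the 11308 protein-coding genes within that range 55.2%, 39.9% and 19.6% had a SON peak in untreated cells and on days 3 and 6, and 23.3% an HMGB2 peak. Promoters rich in CpG carried peaks more often. Of the 8667 protein-coding genes whose 300-base promoter window had an observed-to-expected CpG ratio of at least 0.768, the lowest among the members, 57.8%, 42.3%, 17.6% and 18.7% had a peak touching the window in untreated SON, 3-day SON, 6-day SON and HMGB2. Over all 15813 coding genes with a window these were 40.4%, 28.8%, 11.7% and 13.7%. Of the 9 members with a window, 8, 9, 4 and 5 were touched in the same order. Expression was not measured in these files, so genes of equal activity could not be set beside the members.

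Stricter rules gave equal or lower counts of members, and lower or equal background shares. The global IDR is a measure of agreement between replicates. In the untreated list 55.9% of lines hold equal replicate values, so there it says little about agreement. At a global IDR of at most 0.05, 9, 7 and 2 members had a SON peak in untreated cells, after 3 days and after 6 days. The background shares were 45.0%, 24.0% and 5.02% of protein-coding genes. In the stronger 50% of each list, 9, 8, 5 and 4 members had a peak for the 3 SON lists and HMGB2, against 40.9%, 27.2%, 12.7% and 13.7%. With each list cut to its 5583 strongest lines, the counts were 8, 8, 6 and 7, against 26.3%, 27.2%, 21.5% and 21.9%. At this equal length the 3 SON counts differed by at most 2 genes.

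**Figure D1:**
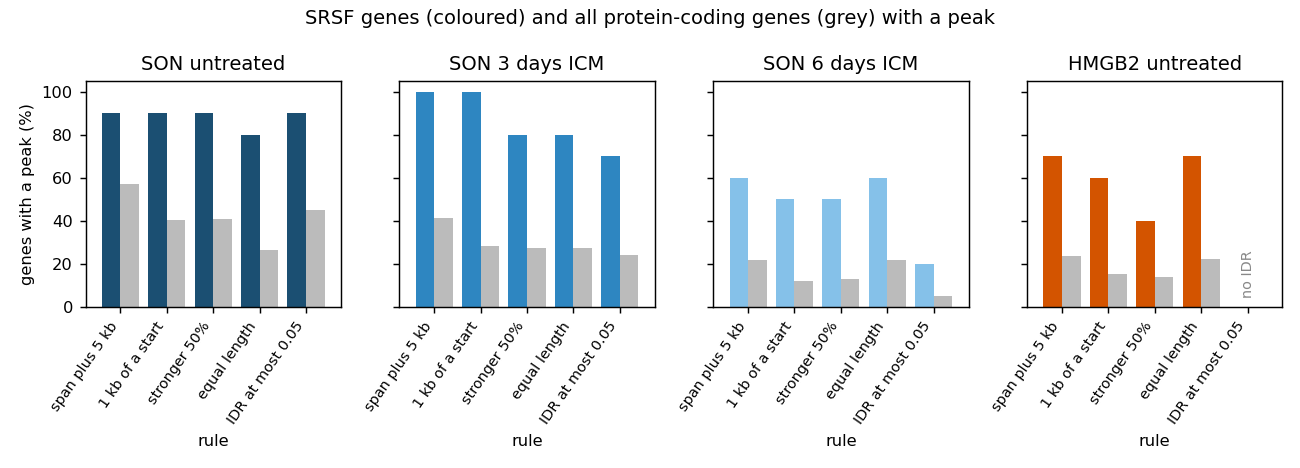
Percent of the 10 SRSF genes (coloured bars) and of all protein-coding genes (grey bars) with a peak in each list, under 5 rules: gene span plus 5 kb, within 1 kb of a gene start, the stronger 50% of the list, lists cut to equal length, and a global IDR of at most 0.05, which the HMGB2 list does not give. The coloured bar is the higher under each rule drawn, and the lowest is 20.0% for 6-day SON at an IDR of at most 0.05.

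Most peaks lay at the gene starts. Of the 40 peaks, 34 had their centre within 1 kb of an annotated start and 31 covered a start, with centres 1 to 263 bp from it. For SRSF2 the table of starts has no entry, and the upper end of its span was used. A SON peak covered the start of 9 members without treatment, 10 at 3 days and 5 at 6 days, and an HMGB2 peak covered that of 5. Within 1 kb of a start the background over protein-coding genes was 40.1%, 28.2%, 11.7% and 15.2% in the same order, and 9, 10, 5 and 6 members had such a peak. These shares count any overlap with the 1 kb on either side of a start. For genes without an entry in the table of starts, SRSF2 included, both ends of the span were used. The summit, the highest point of the peak, was upstream of the start in 23 of the 26 SON peaks that covered a start. Each summit was counted from the nearer start. The exceptions were the 3 summits at SRSF7, 15 to 22 bp downstream of the outer of its 2 starts. They lie upstream of the more internal SRSF7 start, so this exception depends on the start chosen. Shares over all peaks of the lists, for lying at a start or for an upstream summit, are not given here. These positions are therefore not shown to be particular to the members.

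Summits recurred at nearly the same base. Over the 22 pairs of SON peaks of different lists that overlapped at these genes, the summits were 1 to 65 bp apart, with a median of 9.5 bp. The gap over all overlapping SON peaks is not given here, so it is open whether the members differ from it. Counted from the start, with upstream negative, the SRSF10 summits lay at -112 bp in untreated cells, -119 bp on day 3 and -126 bp on day 6. At SRSF1 they lay at -107, -117 and -87 bp, and at SRSF2 at -70, -85 and -78 bp from the upper end of the span. The upstream bases of 5 members are printed because they hold these summits: SRSF10 as the strongest, SRSF1 and SRSF5 as members present in every SON list, SRSF3 as a member absent at 6 days, and SRSF6 as the member seen at 3 days only. Each line gives the 250 bases before the RefSeq start (GRCh38.p14, the same build as the hg38 named in the submitters' processing notes), and capitals mark the bases between the outermost SON summits over the start, widened by 10 bases on each side.
SRSF10, chr1:23980328-23980577, minus strand: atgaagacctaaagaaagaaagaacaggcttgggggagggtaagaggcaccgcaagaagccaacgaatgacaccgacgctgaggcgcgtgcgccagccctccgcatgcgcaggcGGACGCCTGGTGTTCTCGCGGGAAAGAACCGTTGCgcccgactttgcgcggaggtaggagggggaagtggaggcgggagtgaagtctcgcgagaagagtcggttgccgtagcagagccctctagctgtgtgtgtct
SRSF1, chr17:58007247-58007496, minus strand: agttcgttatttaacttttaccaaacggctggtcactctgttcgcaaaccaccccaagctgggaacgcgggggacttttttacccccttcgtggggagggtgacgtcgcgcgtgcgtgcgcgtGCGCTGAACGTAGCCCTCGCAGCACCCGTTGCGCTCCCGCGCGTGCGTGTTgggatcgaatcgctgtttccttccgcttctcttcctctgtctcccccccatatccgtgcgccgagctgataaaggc
SRSF3, chr6:36594112-36594361, plus strand: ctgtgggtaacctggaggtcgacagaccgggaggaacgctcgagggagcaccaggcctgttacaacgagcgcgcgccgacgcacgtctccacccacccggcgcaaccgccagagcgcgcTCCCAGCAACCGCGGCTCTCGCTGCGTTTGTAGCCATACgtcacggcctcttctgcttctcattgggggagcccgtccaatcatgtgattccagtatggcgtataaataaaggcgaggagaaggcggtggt
SRSF5, chr14:69766892-69767141, plus strand: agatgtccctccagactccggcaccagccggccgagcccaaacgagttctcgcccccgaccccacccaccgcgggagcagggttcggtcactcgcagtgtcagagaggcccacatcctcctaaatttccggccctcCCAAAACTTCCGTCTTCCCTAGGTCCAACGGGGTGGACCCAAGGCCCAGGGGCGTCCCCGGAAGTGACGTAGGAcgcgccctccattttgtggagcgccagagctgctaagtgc
SRSF6, chr20:43457646-43457895, plus strand: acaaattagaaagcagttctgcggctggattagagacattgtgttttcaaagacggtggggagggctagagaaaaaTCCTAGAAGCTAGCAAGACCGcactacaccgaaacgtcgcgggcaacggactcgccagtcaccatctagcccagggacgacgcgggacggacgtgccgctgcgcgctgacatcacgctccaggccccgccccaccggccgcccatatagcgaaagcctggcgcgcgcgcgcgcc

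**Figure D2:**
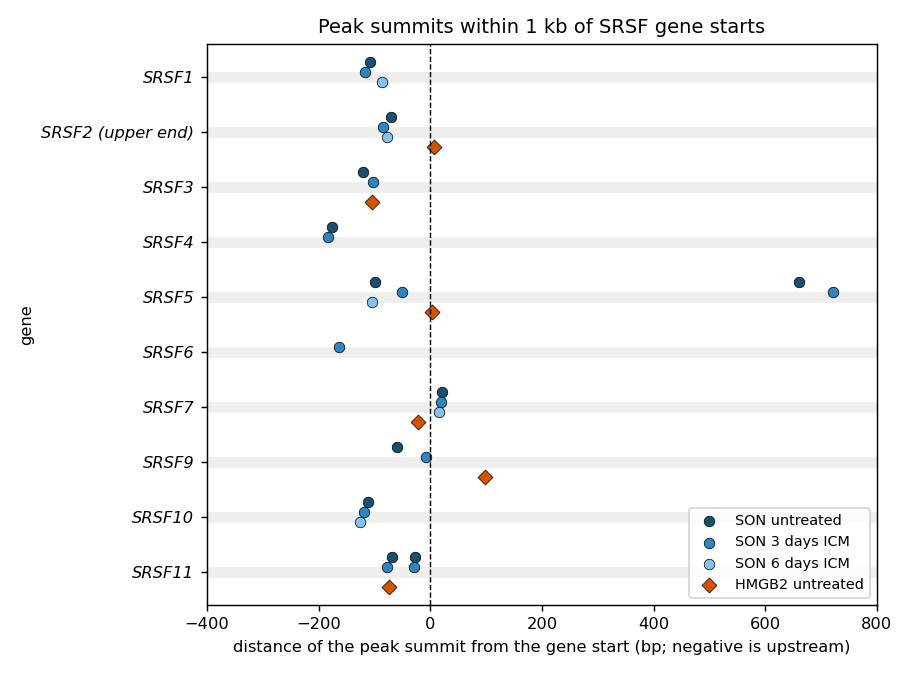
Distance in bp of each peak summit within 1 kb of a gene start from that start (x axis, negative upstream), for each gene (y axis) in the 3 SON lists (circles) and the HMGB2 list (diamonds); SRSF2 is measured from the upper end of its span, and SRSF7 and SRSF11 from the nearer of their starts. SON summits of different lists fall close together for each gene, and the pair at SRSF5, 661 and 721 bp downstream, is a second peak. At SRSF7 the SON summits are drawn from the outer start and the HMGB2 summit from the more internal one. There the untreated SON and HMGB2 summits are 89 bp apart, farther than drawn.

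Common promoter motifs were searched on both strands of the 300-base windows. Of the 11 windows of the 9 members with an entry, the GC box CCCGCC was in 5, against 56.2% of the 22156 coding windows. The TATA box TATAAA was in 3 (SRSF3, SRSF7 and SRSF11), against 9.46%. It began at -30 from the SRSF3 start, at -27 from the more internal SRSF7 start and at -206 from the downstream SRSF11 start. The ETS core CCGGAAG was in 2 (SRSF4 and SRSF5), against 12.8%. At SRSF5 it began at -57 from the start and lies in the capitals above, which run from the untreated and 6-day summits to the 3-day summit. CCAAT was in SRSF3 alone among the members, with 2 matches, against 34.6% of coding windows, and the YY1 letters GCCATNTT in SRSF1 alone, against 7.36%. The NRF1 palindrome (1.5% of coding windows), the CRE letters TGACGTCA (2.26%) and the E-box CACGTG (8.34%) had no match in these windows. Member windows had a median GC content of 62.7%, against 62.3% over coding windows, and a median CpG ratio of 1.05, against 0.738.

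Strength is given below as the authors' −log10 p of a peak, which in the SON lists equals the smaller replicate value, and as a percentile, where 100 is the strongest peak of that list. Lists differ in length (22362, 11158, 5583 and 6013 lines), so a rank or percentile in one is not a change from another. The median percentile of each member's strongest peak was 90.0 in untreated SON (9 genes), 83.6 at 3 days (10 genes), 70.0 at 6 days (6 genes) and 57.7 in HMGB2 (7 genes). Over all protein-coding genes with a peak it was 71.9, 66.2, 59.4 and 59.6. Ranked by replicate 1 alone the 6-day median of the members was 55.9, and by replicate 2 alone 78.2. The global IDR, the expected share of irreproducible peaks down to that line, was at most 0.05 for all 13 untreated SON peaks at the members, for 7 of 12 at 3 days and for 2 of 6 at 6 days. Over whole lists it was so for 59.7%, 41.8% and 16.0% of lines. The 2 replicate values were equal on 55.9%, 29.0% and 9.49% of lines in the same order. The fall in these IDR shares between lists therefore cannot be read as a fall in reproducibility.

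**Figure D3:**
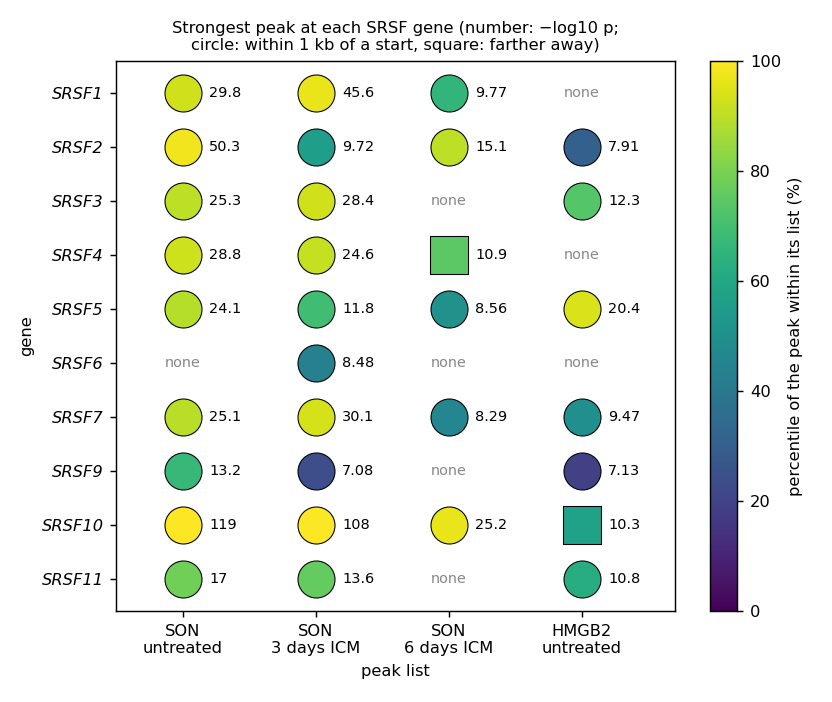
Strongest peak at each of the 10 SRSF genes (rows) in each list (columns): the number is −log10 p, the colour the percentile within the list, a circle a peak within 1 kb of the start and a square one farther away. SRSF10 is the highest of these genes in all 3 SON lists, and SRSF6 has a single entry, at 3 days.

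SRSF10, a factor known for repressing splicing when it is dephosphorylated, as after heat shock, had the strongest SON peaks of the family. The gene lies at chr1:23964347-23980327. The peak over its start had a −log10 p of 119 in untreated cells (rank 83), with the same value in both replicates. At 3 days it was 108 in replicate 1 and 413 in replicate 2 (rank 88), and at 6 days 25.2 and 38.0 (rank 189). Its percentiles were 99.6, 99.2 and 96.6, and its IDR was 0.000343, 1e-05 and 0.000609. No other member exceeded it in any SON list. No HMGB2 peak lay at this start. The HMGB2 peak that the window holds, of −log10 p 10.3 and 4.93-fold enrichment, was 20.6 kb away, 104 bp from the start of the neighbour PNRC2. An untreated SON peak of 19.3 lay there as well.

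By the percentiles of its strongest peaks in the 4 lists, the protein-coding genes most like SRSF10 among 19922 compared were FMC1-LUC7L2, ACTN4, UCKL1, KCNJ14 and CYTH2. Members, the fixed lists of related genes and genes sharing a member's peak were left out. The measure was Euclidean distance, 0.700 for FMC1-LUC7L2 and 2.43 for the last. FMC1-LUC7L2 is a readthrough over LUC7L2, a gene of the SR-related list, and shares its percentile in all 4 lists. The HMGB2 value of SRSF10 used here is that of the peak at PNRC2. KCNJ14 and CYTH2 have equal percentiles as well.

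SRSF11, an SR-related protein also called p54, has starts 15.7 kb apart and a SON peak at each (chr1:70205696-70253052). The downstream start had the stronger peak, with a −log10 p of 17.0 in both untreated replicates and of 13.6 and 30.2 in the replicates at 3 days. At the upstream start the values were 10.6 in both untreated replicates, then 7.62 and 13.0. Neither start had a peak at 6 days. HMGB2 met only the upstream start, at a −log10 p of 10.8 and 4.35-fold enrichment, where its summit was 4 bp from the untreated SON summit. LRRC40 also starts there, 33 bp from the centre of the 3-day peak and 57 bp from that of the HMGB2 peak, so these peaks cannot be given to either gene alone.

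SRSF1 and SRSF9 are close relatives with a pair of RNA recognition motifs. SRSF1 (chr17:57989038-58007246) had a SON peak over its start in every SON list, and the nearest HMGB2 peak 114 kb away. Its −log10 p was 29.8 in both untreated replicates, 45.6 and 112 at 3 days, and 9.77 and 19.5 at 6 days. Ranks were 1592, 385 and 1934, and the IDR was 0.0025, 7.96e-05 and 0.305, so the 6-day peak misses an IDR of 0.05. The peak at 3 days was the widest of the 40, with 1237 bp, against a median of 447 bp in that list.

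SRSF9 (chr12:120461672-120469748) had weaker peaks and shares its start region with DYNLL1, a dynein light chain gene whose start is 12 bp from the centre of the 3-day peak. Its SON values were 13.2 in both untreated replicates and 7.08 and 20.4 at 3 days, with percentiles of 67.1 and 23.7. HMGB2 reached a −log10 p of 7.13 there and 4.60-fold enrichment, at the 19.3rd percentile of that list. No 6-day SON peak lay in the window.

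SRSF4, SRSF5 and SRSF6 each have a pair of RNA recognition motifs and long serine and arginine tails. SRSF4 (chr1:29147743-29181900) had a SON peak over its start in untreated cells, with 28.8 in both replicates, and at 3 days, with 24.6 and 27.9. The span of MECR covers the centres of both peaks, and SRSF4 has no 3-day peak when peaks are given only to the nearest gene. At 6 days no peak lay at that start. The 6-day peak of its window was at the other end, 597 bp past the transcript end, with 10.9 and 11.7 and an IDR of 0.107. An untreated peak of 14.6 and 17.1 overlapped it, and the 3-day list had none there. SRSF4 had no HMGB2 peak, and the nearest was 233 kb away.

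SRSF5 (chr14:69767142-69772005) combined SON peaks in all 3 lists with the strongest HMGB2 peak of the family. SON at its start was 24.1 and 30.6 in the untreated replicates, 11.8 in both replicates at 3 days, and 8.56 and 9.17 at 6 days. The 6-day IDR was 0.224. The −log10 p of HMGB2 there was 20.4, at 7.51-fold enrichment, rank 332 of 6013 lines, with its summit 4 bp past the start and 103 bp from the untreated SON summit. A second SON peak, centred 651 bp into the gene, had 14.1 in both untreated replicates and 5.35 in both at 3 days, the latter at the largest IDR of its list, 0.447. That second peak lies 80 bp from the start of LOC100289511, a long non-coding RNA gene that overlaps SRSF5 on the other strand. The span of LOC100289511 also covers the centres of the SON peaks and of the HMGB2 peak at the SRSF5 start. When peaks are given only to the nearest gene, SRSF5 keeps the second SON peak alone, with no 6-day SON peak and no HMGB2 peak.

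SRSF6 (chr20:43457896-43464243) had no SON peak in untreated cells or at 6 days and no HMGB2 peak. Its 3-day peak covered the start with a −log10 p of 8.48 in replicate 1 and 9.66 in replicate 2, rank 6337 of 11158, and an IDR of 0.0548. It is below the median of its list, 9.10, and just misses an IDR of 0.05. Outside the window the nearest SON peaks were 49.75 kb away in untreated cells and 740 kb away at 6 days. No other gene of the table shares the SRSF6 window, as is true for SRSF3 and SRSF7.

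SRSF3 and SRSF7 are small, closely related SR proteins that also help export mRNA, and SRSF7 carries a zinc knuckle. At SRSF3 (chr6:36594362-36605600) the SON peak had 25.3 in both untreated replicates and 28.4 and 42.2 at 3 days, with ranks of 2237 and 791. At 6 days none lay in the window, and the nearest was 153 kb away. HMGB2 reached a −log10 p of 12.3 and 4.67-fold enrichment, 104 bp upstream of the start and 17 bp from the untreated SON summit. SRSF7 (chr2:38743599-38751494) had 25.1 in both untreated replicates and 30.1 and 35.4 at 3 days, and it also had a SON peak at 6 days. That peak had 8.67 and 8.29 and the largest IDR of its list, 0.63, a value shared by 39.0% of its lines. HMGB2 at the SRSF7 start reached a −log10 p of 9.47 and 4.70-fold enrichment, and a weak second HMGB2 peak of 4.81 lay 3.27 kb inside the gene.

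SRSF2, also known as SC35, has a single RNA recognition motif, and it is the shortest of the 10 genes (chr17:76734115-76737411). SON there was 50.3 in both untreated replicates, second to SRSF10. At 3 days the replicates were far apart, 9.72 and 71.3, and at 6 days they were 15.1 and 17.8. By the lower value the 3-day peak was at percentile 55.5 and had an IDR of 0.155. Ranked by replicate 2 alone it was at percentile 93.3, and by replicate 1 alone at 52.4. Its place among the members at 3 days therefore rests on replicate 1. The 6-day peak had an IDR of 0.0168, so SRSF2 and SRSF10 were the members with a 6-day IDR of at most 0.05. HMGB2 reached a −log10 p of 7.91 and 4.23-fold enrichment. The span of MFSD11 overlaps that of SRSF2, and its start lies 452 bp from the centre of the untreated SON peak.

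The replicate values limit how the members can be ordered. In the untreated list 10 of 13 member peaks had exactly the same value in both replicates, as did 55.9% of all lines, so these pairs give no measure of spread. By the lower value the order there was SRSF10, SRSF2, SRSF1, SRSF4, SRSF3, SRSF7, SRSF5, SRSF11 and SRSF9. The replicates of SRSF5, 24.1 and 30.6, span the values of SRSF1, SRSF4, SRSF3 and SRSF7, so these 5 are not separated. At 3 days replicate 2 was the higher in 10 of 12 member peaks and equal in the others, where it was higher in 56.2% of all lines. The 3-day replicates of SRSF2, 9.72 and 71.3, enclose both values of SRSF3, SRSF4, SRSF5, SRSF7 and the stronger SRSF11 peak. The 3-day replicates of SRSF7 overlap those of SRSF3, and those of SRSF11, 13.6 and 30.2, overlap those of SRSF3, SRSF4 and SRSF7. Those of SRSF1, 45.6 and 112, overlap those of SRSF2 and those of SRSF10, 108 and 413. Those of SRSF9, 7.08 and 20.4, overlap those of SRSF2, SRSF5 and SRSF11 and enclose those of SRSF6. Because replicate 2 runs higher at 3 days, these overlaps also hold a shift between replicates. Within each 3-day replicate SRSF1 was below SRSF10, and SRSF11 was below SRSF3 and SRSF7. SRSF3 and SRSF7 changed order between the replicates, as did SRSF4 and SRSF11. At 6 days SRSF1, with 9.77 and 19.5, overlaps SRSF2 and SRSF4, and SRSF5 overlaps SRSF7, while SRSF10 at 25.2 and 38.0 is above all others.

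**Figure D4:**
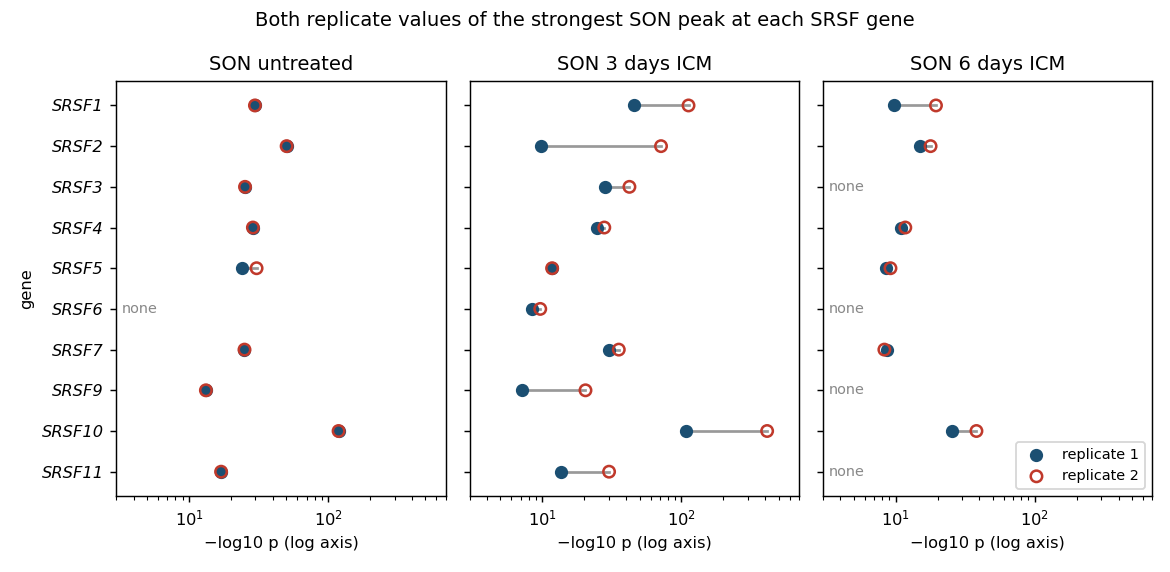
Replicate values (−log10 p, log axis) of the strongest SON peak at each gene, replicate 1 as filled and replicate 2 as open circles joined by a line, for untreated cells, 3 days and 6 days. Replicates coincide for most untreated peaks, and the longest line is SRSF2 at 3 days, from 9.72 to 71.3.

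Positions at the members were shared between lists as follows. Of the 13 untreated SON peaks, 11 overlapped a 3-day peak (84.6%), against 45.4% of all untreated peaks, and 6 overlapped a 6-day peak (46.2%), against 21.9%. Of the 12 peaks at 3 days, 11 overlapped an untreated one (91.7%), against 91.6% of that list, the exception being SRSF6. That share is at the background. All 6 peaks at 6 days overlapped an untreated one, against 88.9%, and 5 of them a 3-day one, against 80.9%. Untreated peaks without a match at 3 days were those near the transcript end of SRSF4 and at PNRC2. Of the 9 HMGB2 peaks, 7 overlapped an untreated SON peak, against 62.3%, 6 overlapped a 3-day one, against 44.1%, and 3 overlapped a 6-day one (SRSF2, SRSF5 and SRSF7), against 23.5%. HMGB2 and untreated SON summits of these 7 pairs were 4 to 158 bp apart, with a median of 77.0 bp.

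Other genes of the pathway were taken from a fixed list. Of 25 genes for SR-like and SR-related proteins, 22 had an untreated SON peak, 20 a 3-day peak, 9 a 6-day peak and 12 an HMGB2 peak, against 57.1%, 41.0%, 21.5% and 23.3% of all protein-coding genes. Peaks in all 4 lists were found at 6 of the 25, against 10.6% of all protein-coding genes: SRRM1, PNN, SCAF1, LUC7L2, ARGLU1 and RSRP1. The SON values of SRRM1, a splicing coactivator with a serine and arginine repeat, were 93.1, 139 and 32.5 in untreated cells and on days 3 and 6, and those of ARGLU1 were 103, 57.8 and 36.4. Their 6-day values were above the 25.2 of SRSF10. SRSF8, SRSF12 and ACIN1 had no peak in any list. Of 10 genes for SR protein kinases and the importer TNPO3, 9, 6 and 1 had a SON peak in untreated cells and on days 3 and 6, and 2 had an HMGB2 peak. Against the same background shares, the 6-day count is a little lower, on only 10 genes, and the HMGB2 count near. CLK2, a kinase that releases SR proteins from speckles, was the gene with a peak in all 4 lists, with SON values of 31.0, 36.1 and 14.8. That is 1 of 10 genes, which is at the background of 10.6%. SRPK3 had none.

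Facts on the whole lists bear on these counts. Read depth is unknown, because the files hold no counts, so a member without a peak may have missed the threshold of its list. The lowest −log10 p in the 4 lists was 3.64, 3.86, 4.21 and 4.56. Peaks do not measure expression, so marker genes are a weak check of the cell label. An untreated SON peak lay at 5 of 6 fibroblast, 1 of 4 epithelial, 2 of 3 endothelial and 1 of 3 blood cell genes, where 57.1% of all protein-coding genes had one. The 3-day list had peaks at 1 of 6, 0 of 4, 1 of 3 and 1 of 3 in the same order, the 6-day list at 1 fibroblast gene and no other marker, and HMGB2 at 3 fibroblast genes and no other marker. VIM, a fibroblast marker, had no peak in any list.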

How the data were processed

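SON and HMGB2 peak lists of 4 samples, 1 per group, were read as the authors deposited them. Per the submitters' processing notes, bcl2fastq 2.17, Bowtie2, deepTools and MACS2 were used with build hg38. Their settings, the peak calling control and the replicates' origin are not given in the sources used here. The SON lists have the 20-column layout of IDR on 2 replicates: the deposited −log10 p of a line equals the smaller replicate value, and −log10 of the global IDR and its scaled score are given. Their signal columns hold a placeholder. The HMGB2 list holds the authors' fold enrichment, −log10 p and q values and a score, and its peak names state a q of 0.03. All these values describe peaks within their own list.

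Peaks were set against RefSeq spans, starts and promoter sequences (GRCh38.p14, 250 bases before to 50 after a start), with 9 of 10 members in the promoter table. Lists were compared by overlaps of at least 1 bp, and the background was every protein-coding gene or every peak. All 10 members are named. Members and gene lists were chosen with earlier results of these data known. Ratios of strength between lists, planned at first, were left out, and percentiles within lists took their place. The planned counts of dipeptides in SR proteins were not made, since no protein sequence was used here. Interval and motif searches were tested on simulated data. Software was matplotlib 3.10.9, scipy 1.17.1, pandas 2.3.3, numpy 2.4.6 and Python 3.11.15.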

Additional observations from a re-analysis of the deposited data

How the results depend on the processing

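The count of members with a peak moved by more than 1.5 times in 3 of its alternatives. Under an IDR limit of 0.05 it was 2 at 6 days, against 5.02% of protein-coding genes. With the stronger 50% of the list, HMGB2 peaks lay at 4 genes, against 13.7%. With peaks given only to the nearest gene they also lay at 4. SON peaks then lay at 8, 7 and 4 members in untreated cells and on days 3 and 6. No background share is given for the nearest-gene rule. Shared peaks moved in the same way. At an IDR of at most 0.05, 7 of 13 untreated SON peaks met a 3-day peak, against 31.4% of all untreated peaks. Of the 13, 2 met a 6-day peak, against 5.9%. In the stronger 50% of each list all 4 HMGB2 peaks at members met an untreated SON peak, against 55.9% of such HMGB2 peaks. The median percentile of the untreated SON peaks was 91.4 by replicate 2 values. At 6 days that median, 70.0 by the deposited value, was 55.9 by replicate 1 values and 78.2 by replicate 2 values, a range that holds the 59.4 over all protein-coding genes by the deposited value. The median over all genes was not computed by single replicates. The remaining counts stayed within 1.5 times their value. Promoter windows touched by a peak were added as an alternative after seeing the data. The HMGB2 list gives no IDR, so it has no value under that limit. No paired analysis was possible because each group has 1 list. Within the SON lists the peaks were ranked by each replicate alone, but no list called without a replicate was made here. With no read counts, the precision that depth allows is unknown.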
